A study of Mus musculus with 8 samples.

Results

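Immunoglobulin variable (V) segment genes were followed in 8 RNA sequencing libraries of mouse splenic B cells. Members were the genes annotated as V genes whose symbol begins with Ighv, Igkv or Iglv, and 79 of the 37583 identifiers in the files met this rule by their Ensembl identifier. They comprised 23 of 113 annotated heavy chain V genes on chromosome 12, 53 of 100 kappa chain V genes on chromosome 6 and all 3 lambda chain V genes on chromosome 16. The other annotated V genes were not analysed here, so sums, families and evenness describe the matched genes and not the whole repertoire.

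All B cells came from spleens of C57BL/6 (B6) mice, with no transgene or deletion named. The naive group had 3 libraries of B cells with no stimulation named. For the CpG group, 3 libraries, the cells were cultured for 3 days with CpG ODN1668, a DNA oligonucleotide that engages TLR9. For the TLR group, 2 libraries, LPS, PMA and ionomycin were added to such CpG cultures during the last 5 hours, so both stimulated groups shared the CpG. LPS engages TLR4, PMA activates protein kinase C and ionomycin raises cell calcium. Whether libraries came from separate mice or cultures is not given, so p-values measure the spread between these libraries, which may be technical.

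A developing B cell joins a V segment to a J segment (with a D segment between them in the heavy chain), and the joined exon is spliced to a constant region exon. The V segment encodes most of the antigen-binding domain, and each B cell uses essentially a single heavy and a single light chain V gene. In RNA from many B cells, a V gene's count therefore reflects both how many cells chose the gene and how much chain RNA each cell holds. In bulk libraries, fewer cells using a V gene and less RNA per cell cannot be told apart. In mice the light chain is mostly kappa, drawn from a large set of V genes, while lambda has very few.

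The lambda V genes are shown because the change in their proportions was the clearest pattern in the comparisons. Below are the last 300 coding bases of each, with capitals in Iglv1 and Iglv2 marking the 8 aligned positions of this stretch at which they differ from one another.
Iglv1: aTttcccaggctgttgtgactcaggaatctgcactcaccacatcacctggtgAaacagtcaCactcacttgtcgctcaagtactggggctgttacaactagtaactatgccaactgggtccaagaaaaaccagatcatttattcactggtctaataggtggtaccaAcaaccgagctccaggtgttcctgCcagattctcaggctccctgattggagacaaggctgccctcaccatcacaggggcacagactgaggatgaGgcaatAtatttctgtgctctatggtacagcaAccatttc
Iglv2: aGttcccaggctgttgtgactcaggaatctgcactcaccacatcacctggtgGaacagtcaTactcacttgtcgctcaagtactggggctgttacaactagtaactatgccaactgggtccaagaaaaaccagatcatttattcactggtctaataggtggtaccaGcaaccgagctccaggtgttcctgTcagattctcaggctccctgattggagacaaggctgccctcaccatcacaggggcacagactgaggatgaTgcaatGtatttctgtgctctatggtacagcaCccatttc
Iglv3: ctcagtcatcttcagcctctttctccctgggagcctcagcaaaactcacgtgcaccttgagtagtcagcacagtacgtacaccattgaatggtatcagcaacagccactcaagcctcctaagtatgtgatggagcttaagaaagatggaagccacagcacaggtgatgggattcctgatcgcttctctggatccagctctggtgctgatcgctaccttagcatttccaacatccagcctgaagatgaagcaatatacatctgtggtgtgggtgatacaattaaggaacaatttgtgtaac
Over the aligned coding sequence, Iglv1 and Iglv2 were 96.9% identical (340 of 351 bases) and 74.8% of the 50-base windows of each occurred in no other annotated gene. Iglv3 was 59.4% identical to Iglv1, and every 50-base window of Iglv3 was unique, so counts of Iglv1 and Iglv2 carry more uncertainty from shared reads than those of Iglv3.

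Igkv5-39 is shown because it held more than any other V gene in a naive library. Its closest annotated relative, Igkv5-45, was 90.5% identical and was not among the matched genes. Capitals mark the 25 positions of the last 300 coding bases at which the pair differs.
Igkv5-39: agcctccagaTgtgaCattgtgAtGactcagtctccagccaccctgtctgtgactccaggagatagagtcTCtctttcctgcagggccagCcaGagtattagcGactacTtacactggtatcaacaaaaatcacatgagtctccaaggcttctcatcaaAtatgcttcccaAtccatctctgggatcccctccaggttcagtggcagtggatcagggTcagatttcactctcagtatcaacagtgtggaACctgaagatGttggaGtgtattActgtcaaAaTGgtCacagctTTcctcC
Igkv5-45: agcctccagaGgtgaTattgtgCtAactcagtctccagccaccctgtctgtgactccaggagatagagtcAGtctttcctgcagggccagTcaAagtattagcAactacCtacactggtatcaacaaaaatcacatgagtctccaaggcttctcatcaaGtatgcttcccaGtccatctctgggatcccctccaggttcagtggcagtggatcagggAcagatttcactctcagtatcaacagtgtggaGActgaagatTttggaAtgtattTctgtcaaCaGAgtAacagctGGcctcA
All 50-base windows of Igkv5-39 were unique to it. The heavy chain V gene with the highest count in each of the 8 libraries was Ighv3-6, whose last 300 coding bases are given for reference and of whose 50-base windows 96.7% were unique.
Ighv3-6: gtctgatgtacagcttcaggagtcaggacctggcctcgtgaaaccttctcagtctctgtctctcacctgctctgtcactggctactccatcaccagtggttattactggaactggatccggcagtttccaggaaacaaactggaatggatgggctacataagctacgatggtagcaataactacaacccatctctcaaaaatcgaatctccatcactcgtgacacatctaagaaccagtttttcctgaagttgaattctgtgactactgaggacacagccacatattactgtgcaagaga
All these sequences are germline sequence of the GENCODE M21 annotation (build GRCm38), printed 5′ to 3′ on the coding strand. Over the 79 members the median share of unique 50-base windows was 91.6% (lowest 19.2%). For kappa alone it was 77.9%, so reads of several kappa V genes could align to a relative as well.

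Gene totals were 15804311 to 20069272 counts per library, so that 1 count equalled 0.0498 to 0.0633 CPM (counts scaled to the size of the library). B cell markers summed to 13193 to 14216 CPM in naive, 8812 to 13122 in CpG and 2679 to 2889 in TLR libraries, with all 9 markers detected in each group. Naive replicate 1 stood apart from the other naive libraries. Its summed macrophage and monocyte markers were 1283 CPM against 312 and 167, and its plasma cell markers 2015 CPM against 959 and 896, of which Jchain alone made up 1147, 177 and 180 CPM and the other 9 markers 868, 782 and 717 CPM. In the file names the first replicates have the prefix RCa1 and all others RCa18. In these RCa1 libraries 37.5% to 50.2% of alignments were not unique, against 14.7% to 21.5% in the others. Counts exclude non-unique alignments.

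V genes together held little of each library. Heavy chain V genes took 0.0271%, 0.0186% and 0.0178% of gene counts in naive replicates 1 to 3, 0.0191%, 0.0291% and 0.0236% in CpG, and 0.0132% and 0.0201% in TLR replicates 1 and 2. The groups overlapped, with TLR replicate 2 above naive replicates 2 and 3 and above CpG replicate 1. Kappa V genes took 0.138%, 0.0679% and 0.0608% in naive, 0.0731%, 0.0827% and 0.0538% in CpG, and 0.0339% and 0.0396% in TLR libraries. Both TLR libraries lay below every other library for kappa, and naive replicate 1 lay far above all. Lambda V genes took 0.0318%, 0.0243% and 0.0225% in naive, 0.0288%, 0.0262% and 0.0267% in CpG, and 0.0121% and 0.0147% in TLR libraries. Again both TLR libraries were below all 6 others. The 95% Wilson intervals of these shares reached at most 4.25% of the value to either side, and cover counting error only.

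The mean kappa share was 0.0889 ± 0.0426% (SD, n = 3) in naive, 0.0699 ± 0.0147% (n = 3) in CpG and 0.0367 ± 0.00401% (n = 2) in TLR libraries. As a ratio of means, TLR to CpG was 0.526 for kappa, 0.493 for lambda and 0.696 for heavy. The heavy share had means of 0.0212 ± 0.00519%, 0.0240 ± 0.00499% and 0.0167 ± 0.00492%, and its groups overlapped. The lambda means were 0.0262 ± 0.00495%, 0.0272 ± 0.00138% and 0.0134 ± 0.00182%. CpG and naive differed by less than the naive spread in all 3 loci. No test was made on these sums, since their members were chosen with results known.

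**Figure D1:**
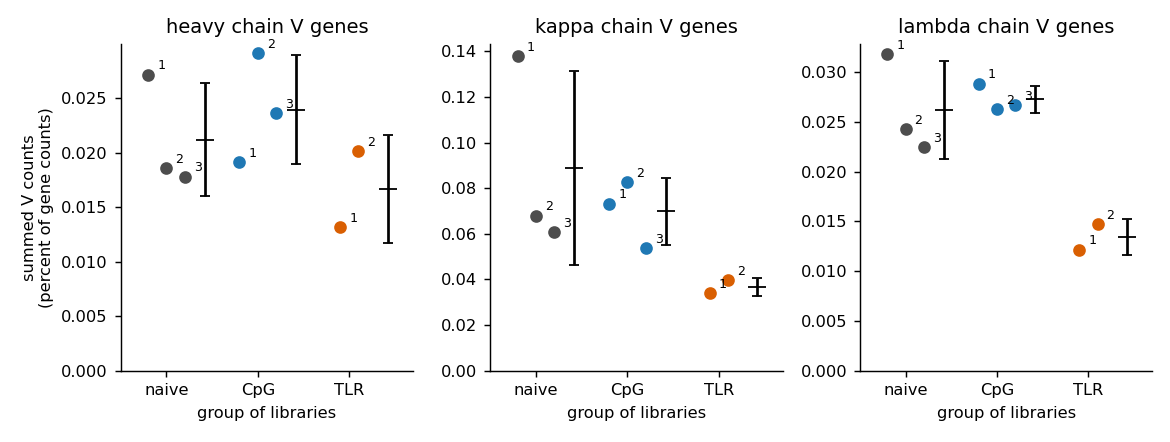
Summed counts of heavy, kappa and lambda V genes as a percent of gene counts (vertical axes) in naive, CpG and TLR libraries. Numbered points are replicates and black bars are the group mean ± SD (n = 3, 3 and 2); for kappa and lambda both TLR libraries lie below all others, and naive replicate 1 is the highest kappa point at 0.138%.

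The ratio of kappa to lambda V counts was 4.34, 2.79 and 2.71 in naive, 2.54, 3.15 and 2.01 in CpG, and 2.79 and 2.69 in TLR libraries. Only naive replicate 1 stood out. Without Igkv5-39, a comparison chosen after its level was seen, the ratio in that library was 2.08, the lowest of the naive group, against 2.42 and 2.54. The constant genes Igkc and Iglc2 ran differently: Igkc over Iglc2 was 8.27, 4.83 and 5.38 in naive, 4.52 to 7.50 in CpG and 8.34 and 9.33 in TLR libraries, with naive replicate 1 close to the TLR libraries. Iglc1 and Iglc3 were not found by symbol, so Iglc2 stands for a part of lambda only. It is not the same measure as the summed lambda V counts. Heavy over light V counts were 0.160, 0.202 and 0.214 in naive, 0.188, 0.267 and 0.294 in CpG, and 0.286 and 0.371 in TLR libraries, so TLR lay above naive with no overlap, while TLR replicate 1 lay within the CpG range.

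Calls for single genes came from edgeR's quasi-likelihood test over all 13964 tested genes, at a Benjamini-Hochberg adjusted p below 0.05. Of the 79 members, 70 passed the filter on low counts (19 heavy, 48 kappa and 3 lambda), and the 9 others had at most 40 counts in all 8 libraries together (2 of them, Ighv7-2 and Ighv13-2, had none). In naive libraries 14 of 23 heavy, 34 of 53 kappa and all 3 lambda members averaged at least 10 CPM per kilobase of exon, against 11, 28 and 3 in TLR libraries. CPM values below were scaled by TMM, and fold changes are log2 values ± SE.

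The first comparison asks what 3 days of CpG changed. Of the 70 tested members, 5 rose and 7 fell, against 23.5% of all tested genes called higher, 21.9% called lower and 45.5% called in either direction. At 7.14% higher and 10.0% lower, the members' shares were under the background in both directions, and their median log2 fold change was 0.14 beside 0.01 for all tested genes. The rise was seen in Igkv3-7, Ighv8-12, Igkv6-32, Igkv17-127 and Iglv1, and the fall in Igkv5-39, Ighv7-3, Igkv4-86, Iglv3, Igkv1-88, Igkv7-33 and Igkv4-81 (the last pair lies outside the naming rule and was named after its values were seen). The count was 6 without naive replicate 3, 5 without CpG replicate 2, and 16 in the RCa18 libraries alone, with 11 higher and 5 lower. Scaled to the summed V counts of each gene's own locus, 8 members were higher and 4 lower. In naive replicate 1 Igkv5-39 was 51.9% of the kappa V counts, so this scaling lowers the other kappa V genes there.

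Among heavy chain V genes, Ighv8-12, a gene at the J-distal end of the locus, was at 15.5, 13.5 and 13.7 CPM in naive and 21.7, 31.8 and 23.3 CPM in CpG libraries. Every CpG library exceeded every naive one, and the gene rose by 0.85 ± 0.21 (adjusted p = 0.00848). Ighv7-3, nearer the J segments, went the other way, from 16.1, 12.8 and 10.8 CPM to 4.97, 4.97 and 7.37 CPM (-1.19 ± 0.24, adjusted p = 0.00327). Its TLR levels of 3.85 and 4.65 CPM were lower again than naive (-1.63 ± 0.29, adjusted p = 0.000787). Both CpG calls held in all 16 alternative analyses. The most abundant heavy V gene per kilobase, Ighv3-6, had 112 ± 15.4 CPM per kb in naive and 152 ± 31.0 in CpG libraries and missed the threshold (0.44 ± 0.18, adjusted p = 0.0707). Ighv6-3 was next at 83.3 ± 31.2 and 96.7 ± 14.4 CPM per kb. In naive libraries the gap was below the SD of Ighv6-3, but Ighv3-6 had the higher count in each of the 8 libraries.

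Among kappa V genes, Igkv3-7 went from 6.25, 6.66 and 6.37 CPM in naive to 14.6, 13.2 and 8.08 CPM in CpG libraries (0.90 ± 0.24, adjusted p = 0.0123), with no overlap. That call was lost in the RCa18 libraries alone (adjusted p = 0.0806). Igkv17-127 went from 21.0, 20.6 and 17.9 CPM to 30.3, 28.2 and 25.3 CPM (0.49 ± 0.14, adjusted p = 0.0148), which missed the threshold once naive replicate 3 was left out (adjusted p = 0.0787). Igkv6-32 had 54.2 and 63.0 CPM in CpG replicates 1 and 2 but 29.7 in replicate 3, which lay among the naive values of 29.2, 33.0 and 27.3. Its call (0.71 ± 0.23, adjusted p = 0.0314) was lost without any 1 naive library and without CpG replicate 1 or 2. Igkv4-86 (-0.77 ± 0.27, adjusted p = 0.0395) and Igkv1-88 (-0.63 ± 0.22, adjusted p = 0.0421) fell with no overlap. The Igkv4-86 call was lost without naive replicate 1 or 3 or CpG replicate 2 or 3, and the Igkv1-88 call without any 1 of the 6 libraries other than naive replicate 3 and with RCa18 libraries only (adjusted p = 0.0835). Igkv4-91 lay between 16.7 and 20.002 CPM in naive and between 23.3 and 30.5 CPM in CpG libraries and was not called (0.52 ± 0.21, adjusted p = 0.0701).

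Igkv5-39 was the V gene that varied most between replicates. Its levels were 702, 92.2 and 37.4 CPM in the naive libraries, at 44.4, 52.1 and 31.9 CPM in CpG, and at 16.4 and 21.6 CPM in TLR libraries. It supplied 51.9%, 13.5% and 6.15% of kappa V counts in naive libraries, 5.95% to 6.25% in CpG and 4.86% and 5.45% in TLR libraries. The fitted fall with CpG (-2.69 ± 0.86, adjusted p = 0.0286) was -0.61 without naive replicate 1 (adjusted p = 0.187), and naive replicate 3 lay within the CpG range. The call was also lost without any 1 of the CpG libraries (adjusted p = 0.0629 to 0.0902) and with RCa18 libraries only (-0.63, adjusted p = 0.283). In the same library as the peak of Igkv5-39, Jchain, the chain that joins IgM pentamers and IgA dimers, was at 1147 CPM against 177 and 180 in the other naive libraries. The heavy chain constant genes Ighm (11011 CPM against 7258 and 7055), Ighg2b (258 CPM against 62.7 and 16.2), Ighg2c (214 CPM against 22.5 and 12.6) and Ighg3 (130 CPM against 19.99 and 19.3) were also highest there. So were the plasma cell markers Prdm1 (15.1, 6.46 and 4.75 CPM), Mzb1 (260, 176 and 177 CPM), Tent5c (23.4, 9.22 and 8.77 CPM), Derl3 (13.1, 10.9 and 6.16 CPM) and, by little, Xbp1 (155, 146 and 150 CPM). The marker Tnfrsf17, below the filter with 62 counts in the naive libraries together, was highest there too. Ighg1 was highest in replicate 2 (15.002, 33.6 and 14.04 CPM), as were the plasma cell markers Irf4 (296, 326 and 278 CPM), Slamf7 (80.01, 84.3 and 70.1 CPM) and, by little, Sdc1 (23.5, 23.6 and 21.7 CPM). Whether plasma cells account for the Igkv5-39 counts was not tested.

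Where Igkv5-39 was highest, kappa use was least even. The effective number of kappa V genes, the exponential of the Shannon entropy of their counts, was 10.6, 30.3 and 33.7 in naive, 31.5, 30.6 and 31.6 in CpG, and 30.6 and 30.6 in TLR libraries, out of 53. With the top gene of each library left out, the values were 31.9, 32.6 and 33.2 in naive, 30.2 to 31.2 in CpG and 30.2 and 30.4 in TLR libraries. The 3 naive libraries were then slightly above all the others. In the 6 libraries that Igkv5-39 did not lead, the top kappa gene was Igkv8-24 or Igkv6-32 with 6.20% to 7.83% of kappa V counts. The heavy V genes had 12.01, 13.1 and 13.0 effective genes of 23 in naive, 11.7, 11.9 and 12.3 in CpG, and 10.9 and 12.1 in TLR libraries. Ighv3-6 led in every library with 16.9% to 22.3% of heavy V counts.

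**Figure D2:**
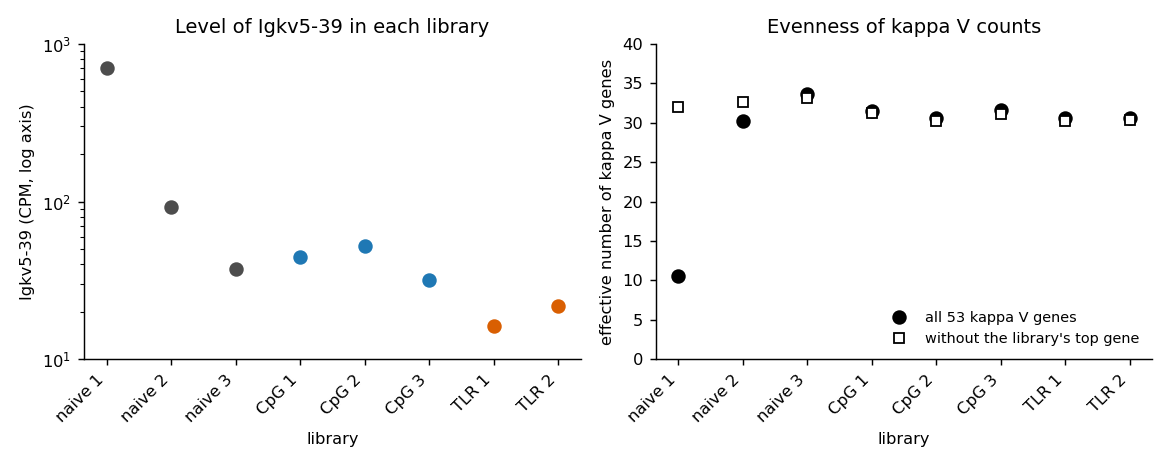
Left, level of Igkv5-39 in each library in CPM on a log axis. Right, effective number of kappa V genes per library with all 53 members (filled circles) and without the library's top gene (open squares); naive replicate 1 sits at 10.6 with all members and at 31.9 without Igkv5-39.

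Within the lambda locus, the share of Iglv3 stepped down and that of Iglv1 stepped up from naive to CpG to TLR libraries. Iglv3 was at 95.7, 96.5 and 88.3 CPM in naive, 65.5, 56.3 and 57.4 CPM in CpG, and 12.2 and 13.5 CPM in TLR libraries. The 3 groups did not overlap. Iglv3 fell by 0.65 ± 0.11 with CpG (adjusted p = 0.000987), by a further 2.22 ± 0.13 from CpG to TLR (adjusted p = 5.84e-06), and by 2.86 ± 0.14 from naive to TLR (adjusted p = 3.68e-07). All 3 calls held in every alternative analysis, including scaling to the lambda V counts alone, where the fall from CpG to TLR was -1.18.

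Iglv1, the most abundant lambda V gene, stood at 166, 118 and 106 CPM in naive, 188, 175 and 171 CPM in CpG, and 84.6 and 102 CPM in TLR libraries. It rose with CpG by 0.45 ± 0.16 (adjusted p = 0.0455), a call lost without naive replicate 2 or 3 or any 1 CpG library (adjusted p = 0.0733 to 0.170). Scaling by RLE or library size alone, a minimum of 1 CPM and fitting only the 2 groups compared also lost it. The call held in 7 of 16 alternative analyses. From CpG to TLR Iglv1 fell by 0.93 ± 0.19 (adjusted p = 0.00354), though it stood at 0.11 when scaled to the lambda V counts. The naive to TLR fall, by 0.47 ± 0.19 (adjusted p = 0.0475), was lost without naive replicate 1 or 2 or either TLR library. It was also lost with only the 2 groups compared. Scaled to the lambda V counts, Iglv1 instead rose by 0.49 (adjusted p = 0.00226). That sum holds only 3 genes, so the fall of Iglv3 by itself raises the scaled Iglv1 and Iglv2. The scaled rise is therefore a change in share and not in level. Iglv2 was at 50.2, 29.7 and 30.3 CPM in naive, 40.6, 33.2 and 37.2 CPM in CpG, and 23.8 and 31.6 CPM in TLR libraries, and was not called in any comparison (adjusted p = 0.168 to 0.971).

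As shares of lambda V counts, Iglv3 went from 30.7%, 39.5% and 39.3% in naive to 22.3%, 21.3% and 21.6% in CpG and 10.1% and 9.16% in TLR libraries, while Iglv1 went from 47.3% to 53.2% to between 63.9% and 66.2%, and then to 70.2% and 69.4%. The share of Iglv2 took no such steps: it was 16.1%, 12.2% and 13.5% in naive and 13.8%, 12.5% and 14.0% in CpG libraries, which overlapped, and 19.8% and 21.4% in TLR libraries, above all the others. The 95% Wilson intervals of these shares reached at most 1.94 percentage points to either side. Per kilobase, Iglv3 was below Iglv1 in each group (245 ± 11.9 against 333 ± 80.9 CPM per kb in naive libraries, a gap close to the SD of Iglv1, and 33.7 ± 2.51 against 239 ± 32.3 in TLR libraries). Iglv3 lay above Iglv2 in naive libraries (100 ± 31.8 CPM per kb) and below it in TLR libraries (75.7 ± 15.0). The lambda constant gene Iglc2 was at 640, 612 and 567 CPM in naive, 1016, 526 and 578 CPM in CpG, and 204 and 201 CPM in TLR libraries, and fell by 1.80 ± 0.26 from CpG to TLR (adjusted p = 0.000568).

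**Figure D3:**
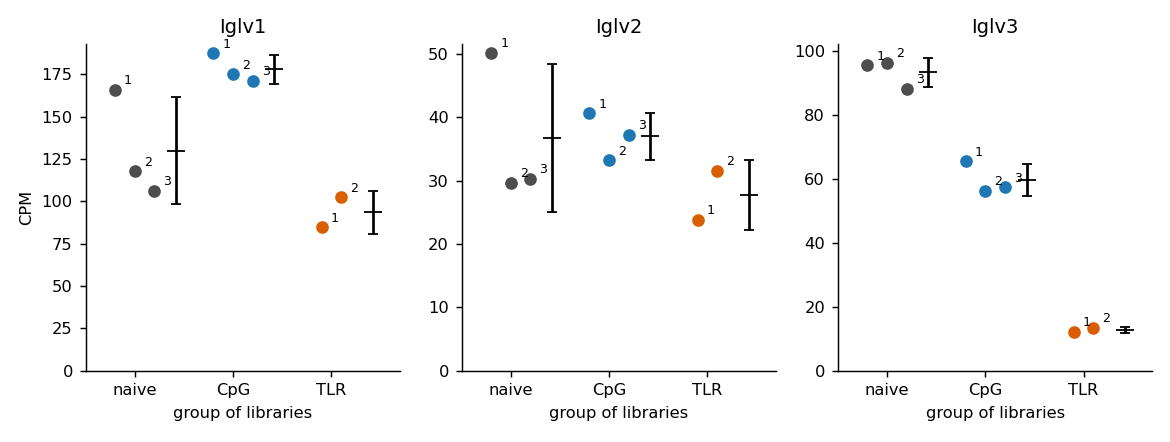
Level of Iglv1, Iglv2 and Iglv3 in CPM (vertical axes) in naive, CpG and TLR libraries. Numbered points are replicates and black bars are the group mean ± SD; Iglv3 steps down from 88.3 to 96.5 CPM in naive to 12.2 and 13.5 CPM in TLR libraries with no overlap between groups.

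The second comparison asks what the final 5 hours with LPS, PMA and ionomycin changed on top of CpG. Of the 70 tested members none rose and 30 fell (4 of 19 heavy, 24 of 48 kappa and 2 of 3 lambda). Over all tested genes 19.0% were called higher, 19.8% lower and 38.8% in either direction. The median log2 fold change was -0.82 for members (-0.63 heavy, -1.002 kappa, -0.93 lambda) beside -0.02 for all tested genes, and 3 members had a fold change above 0. Without TLR replicate 1, and in the RCa18 libraries alone, 10 members fell and none rose. TLR replicate 1 was the lower of the pair in 60 of the 70 members and in all 19 heavy ones. Scaled to the V counts of their own locus, 1 member was higher and 3 were lower.

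Among kappa V genes, Igkv12-46 went from 42.4, 46.3 and 27.7 CPM in CpG to 13.5 and 13.6 CPM in TLR libraries (-1.52 ± 0.26, adjusted p = 0.00141), with no overlap. It kept its call in all 15 alternative analyses, the scaling to kappa V counts included (-0.56, adjusted p = 0.0307). Igkv17-127 fell from 30.3, 28.2 and 25.3 CPM to 9.85 and 10.4 CPM (-1.46 ± 0.16, adjusted p = 0.000111). Igkv17-121, the other member of the Igkv17 family, fell from 25.4, 27.0 and 19.5 CPM to 8.61 and 9.34 CPM (-1.42 ± 0.19, adjusted p = 0.000301). Both Igkv17 genes and Igkv1-88 (-1.32 ± 0.27, adjusted p = 0.00356) lost their calls only when scaled to the kappa V counts.

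Other kappa genes among the most abundant per kilobase fell as well. Igkv5-39, the highest per kilobase over all groups, was not called (-1.17 ± 0.97, adjusted p = 0.376), though both TLR libraries lay below all CpG libraries. Igkv8-24 went from 47.1, 54.1 and 35.9 CPM to 25.1 and 31.1 CPM (-0.70 ± 0.18, adjusted p = 0.0131), Igkv8-27 from 35.1, 40.02 and 30.1 CPM to 18.5 and 25.6 CPM (-0.67 ± 0.18, adjusted p = 0.0162), and Igkv16-104 from 42.2, 50.4 and 27.0 CPM to 16.8 and 21.8 CPM (-1.04 ± 0.24, adjusted p = 0.00725). The CpG and TLR libraries did not overlap in any of these 3 genes. All 3 calls were lost without TLR replicate 1, and scaled to the kappa V counts Igkv8-24 stood at 0.23 and Igkv8-27 at 0.24. Igkv6-32, Igkv3-7, Igkv12-89 and Igkv13-84 also fell (-1.05, -0.99, -1.22 and -1.19, adjusted p = 0.0124 to 0.0348), and each call was lost without TLR replicate 1 and without at least 1 other library. Igkv4-91, Igkv2-112 and Igkv4-72 were not called (adjusted p = 0.101, 0.163 and 0.139).

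Heavy chain V genes gave fewer calls. Ighv3-6 went from 43.5, 64.9 and 50.8 CPM to 28.6 and 38.9 CPM (-0.65 ± 0.21, adjusted p = 0.0305), and Ighv8-12 from 21.7, 31.8 and 23.3 CPM to 11.4 and 17.8 CPM (-0.81 ± 0.24, adjusted p = 0.0219). The Ighv8-12 level in TLR libraries was again near naive (0.03 ± 0.23, adjusted p = 0.908). Both falls from CpG were lost without CpG replicate 2 and without TLR replicate 1. Ighv6-3, Ighv1-18, Ighv7-1, Ighv6-6 and Ighv14-4 were not called (adjusted p = 0.132 to 0.696). Whether heavy chain V genes changed less than kappa V genes was not tested.

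In the comparison of TLR with naive cells, none of the 70 members rose and 33 fell (4 heavy, 27 kappa, 2 lambda). Over all tested genes 31.6% were called higher, 29.7% lower and 61.2% in either direction. It shares libraries with the other comparisons and is not independent of them. The members' median was -0.79 (-0.35 heavy, -0.93 kappa, -0.47 lambda) beside 0.01 for all tested genes. Without TLR replicate 1 the count was 17, with 1 higher, and in the RCa18 libraries alone 17, with 3 higher. Scaled to their locus, 9 members were higher and 6 lower. Igkv5-39 made up 51.9% of the kappa V counts of naive replicate 1, so this scaling lowers the other kappa V genes in that library. Among the genes named by rule, those besides Iglv3 and Ighv7-3 that fell in all 5 analyses leaving out 1 library were Igkv12-89 (-2.04 ± 0.40, adjusted p = 0.00166), Igkv1-88 (-1.94 ± 0.27, adjusted p = 0.000180), Igkv4-86 (-1.56 ± 0.32, adjusted p = 0.00187), Igkv12-46 (-1.55 ± 0.26, adjusted p = 0.000605), Igkv17-121 (-1.15 ± 0.19, adjusted p = 0.000465) and Igkv17-127 (-0.97 ± 0.16, adjusted p = 0.000536, but 0.15 scaled to the kappa V counts). Each of these kappa calls was lost when scaled to the kappa V counts. Igkv12-89 was at 12.4, 23.6 and 28.5 CPM in naive and 3.28 and 7.12 CPM in TLR libraries.

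**Figure D4:**
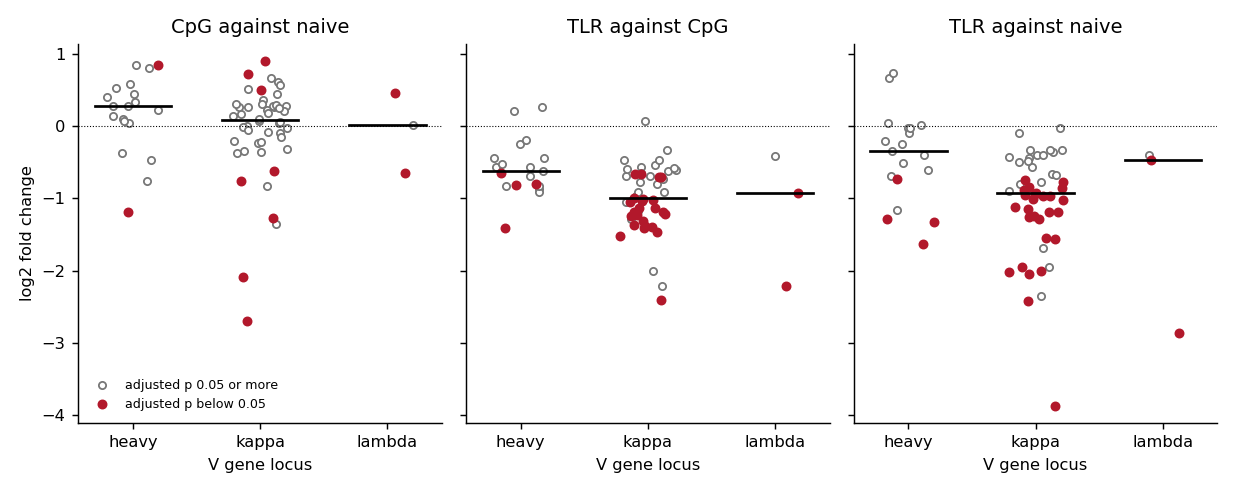
Log2 fold change of the 70 tested V genes by locus in the 3 comparisons. Filled points passed an adjusted p below 0.05, open points did not, horizontal bars are medians and the sideways scatter is arbitrary; filled points lie on both sides of 0 for CpG against naive (5 above, 7 below) and, under TMM scaling, only below 0 in the other comparisons (30 and 33).

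Lower medians in TLR libraries were seen in most families of heavy and kappa V genes, and lower calls in all parts of the kappa locus. From CpG to TLR the median fold change was below 0 in 14 of 15 kappa families and in 9 of 11 tested heavy families. Many of these families had only 1 tested member, so their median is the value of that gene. The exception in kappa was Igkv7, whose sole member Igkv7-33 had 0.32, 0.75 and 2.84 CPM in CpG and 0.79 and 1.96 CPM in TLR libraries. With the kappa locus divided in 3 equal parts by gene order, 8 of 12 tested J-distal, 7 of 19 middle and 9 of 17 J-proximal members fell from CpG to TLR (medians -0.96, -0.80 and -1.13). Of the heavy V genes divided in the same way, 1 of 2 tested J-distal, 3 of 9 middle and 0 of 8 J-proximal members fell (medians -0.82, -0.65 and -0.54). Of those 8 J-proximal genes, edgeR gave 1 an unadjusted p under 0.05 (Ighv5-2, adjusted p = 0.0633) and DESeq2 called 0. The Igkv4 family, the largest with 17 tested members, had 3 lower calls from CpG to TLR and 10 from naive to TLR. Over all tested genes 19.8% were called lower from CpG to TLR, a share that the Igkv4 count did not exceed, and 29.7% from naive to TLR. Of the tested heavy V genes 21.1% were called lower from CpG to TLR, near the share over all tested genes, and of the kappa V genes 50%.

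Replicates disagreed in more than Igkv5-39. The percent of V use that differs between 2 libraries was taken as the share of a locus's counts that would have to move to other genes to make their proportions equal. Among naive libraries it was 39.7% and 46.4% for kappa in the pairs with replicate 1 and 9.18% between replicates 2 and 3. Without the top gene of either library these were 13.6%, 13.4% and 5.23%. CpG pairs differed in 5.04% to 8.45% of kappa use and the TLR pair in 7.83%, against 9.57% to 12.3% between CpG and TLR libraries. Heavy use differed by 17.2% and 15.6% in the naive pairs with replicate 1, 5.16% between naive replicates 2 and 3, 5.34% to 7.06% in CpG pairs and 8.76% in the TLR pair. Lambda use differed by 1.30% to 8.83% within naive, 0.713% to 2.32% within CpG and 1.65% within TLR, against 20.6% to 30.4% between naive and TLR libraries. Over all 3 lambda genes, every difference between groups exceeded every difference within a group, which was not so for heavy or kappa use. It was not so for lambda either without the top gene of either library: naive replicate 1 then differed from the CpG libraries by 2.68% to 4.94%, less than from naive replicates 2 and 3 (10.9% and 8.85%).

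**Figure D5:**
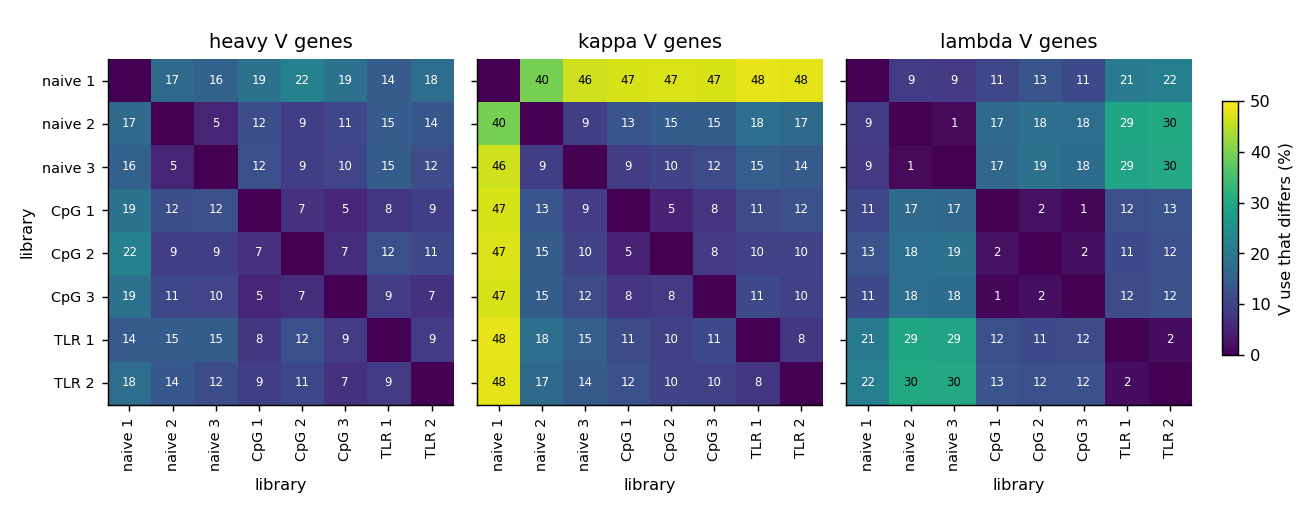
Percent of V use that differs between each pair of libraries (colour and printed number, rounded) for heavy, kappa and lambda V genes; rows and columns are the 8 libraries. Naive replicate 1 differs from all others in kappa use (39.7% to 48.1%), and in lambda use over all 3 genes pairs within a group differ by at most 8.83% and pairs between groups by at least 10.6%.

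Besides Igkv5-39, the tested members with the widest naive spread among those with a mean of at least 8 CPM there were Ighv14-4 (27.8, 8.67 and 8.25 CPM) and Igkv2-112 (24.4, 9.52 and 11.3 CPM), both highest in replicate 1. Ighv6-3 (42.5, 22.2 and 24.3 CPM), Ighv7-1 (28.3, 13.8 and 11.01 CPM) and Ighv6-6 (24.5, 13.6 and 12.8 CPM) were also highest in replicate 1, while Igkv12-89 (12.4, 23.6 and 28.5 CPM) was lowest there. Naive replicate 1 was nevertheless the lowest of its group in 25 of 70 members and the highest in 33. Of the CpG libraries, replicate 3 was the lowest in 41 of 48 kappa members, and replicate 1 the lowest in 17 of 19 heavy members. The median SD of log2 CPM over naive libraries was 0.27 for heavy and 0.20 for kappa members beside 0.15 for all tested genes, and over CpG libraries 0.32 and 0.38 beside 0.25. Over the TLR libraries it was 0.45 and 0.23 beside 0.16. For the 3 lambda members it was 0.34 in naive, 0.12 in CpG (below all tested genes) and 0.19 in TLR libraries.

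Constant region genes and receptor partners give the setting. Igkc, the kappa constant gene, was at 5290, 2956 and 3053 CPM in naive, 4586, 3944 and 3473 CPM in CpG, and 1704 and 1873 CPM in TLR libraries (-1.16 ± 0.26 from CpG to TLR, adjusted p = 0.00622). Ighm, the mu heavy chain, stood at 8125 and 10519 CPM in TLR and 12978 to 13550 CPM in CpG libraries and was not called between them (-0.51 ± 0.22, adjusted p = 0.0923). Of 7 tested constant genes, 2 fell and none rose from CpG to TLR, beside 19.8% of all tested genes called lower and 19.0% called higher. All 5 Igkj segments fell (median -1.22), and 2 of 4 Ighj segments fell (median -0.77). The J segments were examined after other values were seen.

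Of 12 B cell receptor partner genes, 10 fell and 1 rose from CpG to TLR (median -1.38). Over all tested genes, 19.8% were called lower and 19.0% higher in this comparison. Blnk, an adaptor of the receptor, fell by 2.05 ± 0.15 (adjusted p = 1.24e-05), and Cd79b, the receptor's signalling chain, by 2.02 ± 0.23 (adjusted p = 0.000137). Of 11 factors that act at V promoters or in B cell transcription, 8 fell and none rose (median -1.35). Among them Pou2af1, the coactivator of octamer-bound Oct proteins, fell by 2.13 ± 0.18 (adjusted p = 2.44e-05), while Pou2f2 (Oct-2) was at 737 CPM on average in CpG and 691 CPM in TLR libraries (adjusted p = 0.733). The 9 B cell markers had 8 lower calls. Their part in the V gene values was not tested.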

How the data were processed

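RNA of 8 libraries (3 naive, 3 CpG and 2 TLR) was polyA-selected and made into directional libraries, per the labels' protocols. Raw gene counts were deposited by the authors. The submitters' processing notes name STAR, HTSeq and edgeR and build mm9, and the file names say that counting ignored strand. Versions and the annotation release are not given in the sources used here. Non-unique alignments were not counted, which can lower the counts of V genes with close relatives. Symbols, V gene class and sequences came from GENCODE M21 (GRCm38), which matched 32860 of the identifiers. The 4723 unmatched identifiers, with at most 1.01% of any library's counts, may include other V genes.

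Counts were fitted in R 4.3.3 with edgeR 4.0.16 (filterByExpr, TMM, quasi-likelihood over all libraries, 1 mean per group, prior count 0.125, Benjamini-Hochberg over 13964 genes). SEs were derived from the fold change and its F statistic. The procedure was tested on simulated data. Shares, evenness and differences in use are descriptions with no test. The members and gene lists were chosen with earlier results of these data known. Named genes were all lambda members, the 6 heavy and 6 kappa members highest per kilobase, the 4 largest called rises and falls per comparison with a mean of at least 5 CPM, the 3 most variable members per group with at least 8 CPM, and the top gene of each locus and library. The alternatives were scaling by RLE or by library size alone, DESeq2 1.42.0, TMM without immunoglobulin genes, scaling to the locus, other filters, only the groups compared, a replicate block, only the RCa18 libraries and each library left out. Igha, Ighd, Iglc1 and Iglc3 were not found by symbol, and promoters of V genes were not analysed here.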

Additional observations from a re-analysis of the deposited data

How the results depend on the processing

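The number of V genes called moved by over 1.5 times in some analyses. Leaving out 1 library gave 5 to 12 for CpG against naive (12 in the main analysis), 10 to 32 for TLR against CpG (30) and 17 to 29 for TLR against naive (33). Scaling to the V counts of the locus gave 4 for TLR against CpG and 15 for TLR against naive; by construction it removes any change shared by a locus. The RCa18 libraries alone gave 10 and 17, with fewer samples. Replicate numbers were not treated as pairs, since the labels give no pairing. In CpG against naive the deviations of same-numbered libraries correlated at 0.160, 0.104 and 0.00359, and those of differently numbered ones at -0.182 to 0.147. The 2 numbers shared by TLR and CpG (0.325 and 0.297) and by TLR and naive libraries (0.127 and 0.0250) are too few to settle it. Replicate 1 of each group also carried the prefix RCa1, so number and prefix cannot be told apart there. A replicate block gave 12, 37 and 40 calls, and under it Igkv5-39 (-1.85, adjusted p = 0.0675) and Igkv1-88 (-0.61, adjusted p = 0.0585) missed the threshold for CpG against naive. Ratios of group means that moved by more than the replicate spread included the lambda share, TLR over CpG (0.446 to 0.540 leaving out 1 library, 0.493 with all). Another was kappa to lambda when taken as Igkc over Iglc2, which covers a part of lambda only, TLR over CpG (1.47, from 1.07) and TLR over naive (1.43, from 0.836). Kappa to lambda V counts without Igkv5-39 also moved, CpG over naive (1.03, from 0.783) and TLR over naive (1.11). Heavy evenness, CpG over naive, was 0.896 by inverse Simpson (0.944 by effective genes) and, TLR over CpG, 0.914 to 1.01 leaving out 1 library (0.964). Mean differences in use among naive libraries were 5.16% for heavy in the RCa18 libraries (12.7% in all) and 9.18% for kappa (31.7%), or 10.7% for kappa without the top genes; heavy use among CpG libraries differed by 7.80% without the top genes (6.32%). The cause of these shifts was not tested beyond what is stated.

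Of 626 alternative values for named genes, 507 kept direction and call, 100 lost the call and 19 changed sign. Scaling to the locus turned the fall from CpG to TLR into 0.23 for Igkv8-24, 0.24 for Igkv8-27, 0.11 for Iglv1 and 0.61 for Iglv2, and that from naive to TLR into 0.12 for Igkv16-104, 0.15 for Igkv17-127, 0.22 for Igkv4-72, 0.49 for Iglv1 and 0.56 for Iglv2. Iglv2, called in no main comparison, changed sign for CpG against naive (0.01) with RLE (-0.026), library size alone (-0.012), locus scaling (-0.048), no filter (-0.0040), a minimum of 1 CPM (-0.013) and DESeq2 (-0.026), and ranged from -0.13 to 0.29 leaving out 1 library; for TLR against naive it was 0.070 in the RCa18 libraries.

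With 2 TLR libraries and 79 of 216 annotated V genes matched, small changes and rarely used V genes were beyond reach: the smallest summed V count was 2131, for lambda in TLR replicate 1. How many reads of rearranged or mutated V genes failed to align was not measured.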

Other observations

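The V pseudogene Igkv11-106, no member of the V gene set, was counted at 58.8, 74.7 and 65.2 CPM in naive, 82.3, 77.9 and 53.4 CPM in CpG, and 23.9 and 25.2 CPM in TLR libraries, and fell from CpG to TLR by 1.53 ± 0.20 (edgeR adjusted p = 0.000268). It was chosen after its values were seen. Igkj3 went from 17.1, 17.7 and 17.2 CPM in naive to 13.8, 11.3 and 9.01 CPM in CpG and 1.81 and 3.05 CPM in TLR libraries, while Igkj2 was at 47.6, 53.2 and 44.7, at 58.2, 57.0 and 53.9, and at 20.4 and 28.0 CPM.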
